A study of Mus musculus with 2 samples.

Results

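Cholesterol biosynthesis was described here through 8 enzymes of the pathway, Hmgcs1, Idi1, Fdps, Fdft1, Sqle, Lss, Cyp51 and Dhcr7, in the tooth and the skin of newborn mice. The members were the spots, other than control spots, that carried one of these 8 gene names on both arrays, which made 8 of the 24323 named genes on the array. Total RNA from wild-type (WT) tooth and from WT skin was labelled with a single dye and hybridised to 1 Agilent whole-genome array per tissue. Both tissues were labelled P0, the day of birth, and P0 is used here, although the methods of the study place the isolation 1 day later. No treatment or engineered allele was given for either tissue, and the labels gave neither the number of animals behind an array nor the site from which skin was taken. Since each tissue was measured on 1 array, the spread between animals is unknown, no test was run, and the differences have no replicate check. The study asked whether teeth of Sox21 knockout mice had switched cell fate. For this it set wild-type tooth beside wild-type skin, together with a comparison of knockout and wild-type tooth germ. Only the wild-type comparison of tooth and skin is used here, for the sterol pathway.

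Cholesterol is built from acetyl-CoA. The early enzymes make mevalonate and then isopentenyl diphosphate, the isoprene unit. Prenyl transferases join these units to farnesyl diphosphate and squalene, squalene is closed to lanosterol, and a series of demethylations, reductions and isomerisations turns lanosterol into cholesterol. Most of these genes are known targets of SREBP-2, a membrane-bound transcription factor that is cleaved when sterols are low, and the factor binds a sterol regulatory element next to sites for NF-Y (CCAAT boxes) and Sp1 (GC boxes). In skin, cholesterol is a lipid of the permeability barrier of the stratum corneum, together with ceramides and fatty acids. In many developing organs, skin and tooth included, cholesterol is also attached to the signalling protein Sonic hedgehog.

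The promoters of the members are shown because sites of these kinds are known to carry the regulation of the pathway by sterols, which was not measured here. RefSeq (assembly GRCm38.p6) gave promoters for Hmgcs1, Idi1, Lss, Cyp51 and Dhcr7, 5 of the 8 members. The 150 bases before the annotated start are printed 5′ to 3′ on the strand of the gene, and for Dhcr7, with 3 annotated starts, before the most upstream of them. Capitals mark the letters TCACNCCAC (a core of the sterol regulatory element), CCAAT and GGGCGG, searched on both strands, so that ATTGG and CCGCCC are the latter 2 read from the other strand. The windows lie at chr13:119690201-119690350 (plus strand) for Hmgcs1, chr13:8885456-8885605 (plus strand) for Idi1, chr10:76531455-76531604 (plus strand) for Lss, chr5:4104698-4104847 (minus strand) for Cyp51 and chr7:143823017-143823166 (plus strand) for Dhcr7.
Hmgcs1: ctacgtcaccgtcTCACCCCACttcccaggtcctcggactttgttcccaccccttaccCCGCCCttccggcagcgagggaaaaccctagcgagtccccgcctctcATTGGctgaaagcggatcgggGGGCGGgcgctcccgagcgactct
Idi1: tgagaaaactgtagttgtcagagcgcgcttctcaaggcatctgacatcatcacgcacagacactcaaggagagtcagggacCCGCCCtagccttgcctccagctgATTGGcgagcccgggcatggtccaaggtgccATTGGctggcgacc
Lss: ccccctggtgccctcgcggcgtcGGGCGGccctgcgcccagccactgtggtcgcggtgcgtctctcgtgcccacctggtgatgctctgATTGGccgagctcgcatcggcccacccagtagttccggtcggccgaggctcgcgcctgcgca
Cyp51: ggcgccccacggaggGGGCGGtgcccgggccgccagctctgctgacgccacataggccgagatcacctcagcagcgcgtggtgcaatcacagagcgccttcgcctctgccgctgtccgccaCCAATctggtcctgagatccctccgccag
Dhcr7: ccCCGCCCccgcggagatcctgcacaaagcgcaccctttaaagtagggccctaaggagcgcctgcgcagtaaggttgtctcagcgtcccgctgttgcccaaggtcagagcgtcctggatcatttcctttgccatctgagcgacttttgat

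Over the full 250 bases before each start, the sterol regulatory element letters were found in 1 of the 5 members, Hmgcs1, where they began 137 bases before the start. The same letters occurred in 1.05% of the 32851 promoters of that length in the table. Counted by promoter, CCAAT was found in 5 of the 7 promoters of these members, against 33.8% of all promoters, and GGGCGG in 6 of 7, against 32.7%. For Dhcr7, CCAAT stood before the most downstream of its 3 starts and not in the window printed. All 11 other enzymes of the pathway read here had a promoter in the table, and counted by gene 10 held CCAAT, 10 held GGGCGG and 0 held TCACNCCAC. These matches describe exact letters only, so variants of an element were not counted. Binding was not measured.

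Per the deposited calls of the scanner software, all 8 members were well above background on both arrays. A level is given as log2 of the processed signal relative to the 75th percentile of all probes of the same array, and a difference is skin minus tooth on the same scale. Each enzyme was read by 1 spot per array, and the error given for a spot is that modelled by the software, in which a fixed term of 10% of the signal dominates for spots this bright. It covers the spot and not the animal. Levels of different enzymes come from different probes and were not set against each other.

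Hmgcs1 encodes the cytosolic synthase that condenses acetoacetyl-CoA with acetyl-CoA at the entry to the mevalonate pathway. Its probe, at chr13_random:114793-114852 of mm9 on the minus strand, had a processed signal of 8076 ± 808 (modelled error, 1 spot) in tooth and 10762 ± 1076 in skin. The scaled levels were 4.24 in tooth and 5.28 in skin, and the difference was 1.05 ± 0.20 (modelled error), or 2.07-fold. Skin was thus the higher of the pair before and after scaling. A further probe under the same gene name, built on another cDNA, did not rise well above background in tooth or in skin.

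Idi1 encodes the isomerase that converts isopentenyl diphosphate to dimethylallyl diphosphate. Its probe (mm9 chr13:8891524-8891583, plus strand) read 2218 ± 222 in tooth and 2656 ± 266 in skin. The scaled levels of 2.37 and 3.27 differed by 0.89 ± 0.20, just under 2-fold. As for Hmgcs1, the unscaled signal was also the higher one in skin.

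Fdps and Fdft1 act next, as farnesyl diphosphate synthase and squalene synthase. The Fdps probe (mm9 chr3:88897549-88897608, minus strand) read 13082 ± 1308 in tooth and 9332 ± 933 in skin, for levels of 4.93 and 5.08. Its difference of 0.14 ± 0.20 lay within the modelled error of the spots. The Fdft1 probe read 1501 ± 150 in tooth and 1212 ± 121 in skin, for levels of 1.81 and 2.13 and a difference of 0.32 ± 0.20. Both enzymes were brighter in tooth as scanned and higher in skin after scaling to the 75th percentile.

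The Fdft1 probe is shown because it is the 1 member probe that does not match a single stretch of the genome. Its 60 bases are placed by the array file on mm9 chr14:63765750-63769990 (minus strand), a span of 4241 bases, so they cross a splice junction and read spliced transcript. No letters are set in capitals.
Fdft1 probe: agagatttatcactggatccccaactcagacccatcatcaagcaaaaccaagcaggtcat
A second Fdft1 probe, in 1 block at mm9 chr14:63764562-63764621, was dim in both tissues and not called above background, with signals of 18.6 and 13.8 in tooth and skin.

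Sqle, the squalene epoxidase, and Lss, the lanosterol synthase that closes the ring system, carry squalene to lanosterol. The Sqle probe (mm9 chr15:59162688-59162747, plus strand) read 8776 ± 878 in tooth and 7356 ± 736 in skin, for levels of 4.36 and 4.74 and a difference of 0.38 ± 0.20. The Lss probe (mm9 chr10:76015992-76016051, plus strand) read 428 ± 43.0 in tooth and 374 ± 37.7 in skin. In tooth it lay at the 75th percentile itself, in skin at 0.44, and the difference was 0.44 ± 0.21. For both, skin was higher only on the scaled values.

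Cyp51 is the lanosterol 14-alpha-demethylase, which opens the last segment, and Dhcr7, the 7-dehydrocholesterol reductase, carries out its final reduction in one of the branches. They stood at opposite ends of the 8. The Cyp51 probe (mm9 chr5:4081471-4081530, minus strand) read 280 ± 28.2 in tooth and 182 ± 18.7 in skin, and its levels of -0.61 and -0.60 gave a difference of 0.01 ± 0.21. The Dhcr7 probe (mm9 chr7:151033874-151033933, plus strand) read 492 ± 49.3 in tooth and 851 ± 85.2 in skin. Its levels of 0.20 and 1.62 gave a difference of 1.42 ± 0.20, or 2.68-fold. Dhcr7 was the member with the largest difference, and it was brighter in skin as scanned.

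**Figure D1:**
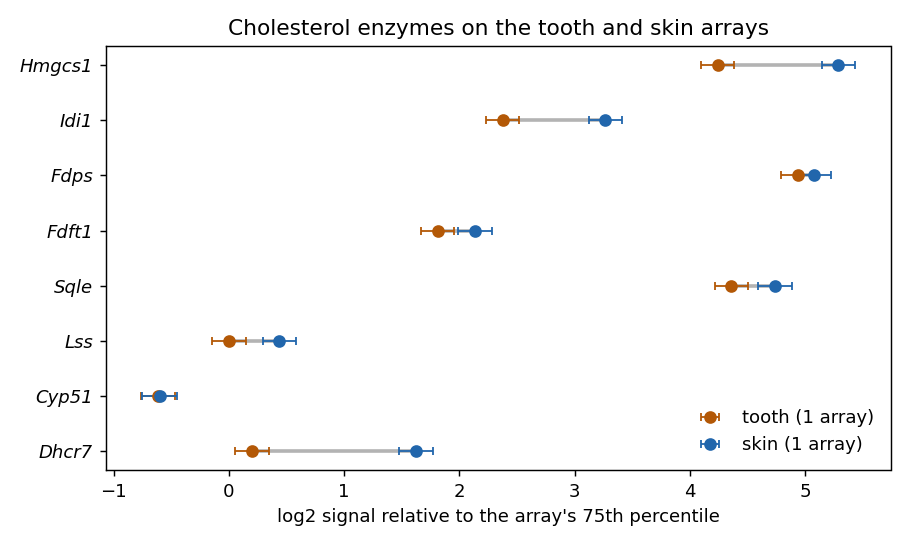
Scaled level (log2 signal relative to the array's 75th percentile, x axis) of the 8 enzymes in pathway order in tooth and in skin, 1 array each, with the error modelled by the scanner software for the spot. Dhcr7, Hmgcs1 and Idi1 show wide gaps between tooth and skin (differences of 1.42, 1.05 and 0.89), whereas the points of Cyp51 (0.01) coincide.

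The 8 differences therefore ran from 0.01 for Cyp51 to 1.42 for Dhcr7, with a median of 0.41. After this scaling 8 of 8 members were higher in skin, against 47.6% of the 17409 named genes that passed the background call in 1 tissue or both. At least 2-fold higher in skin were 2 members, Hmgcs1 and Dhcr7, against 14.2% of all genes, and 0 members were at least 2-fold higher in tooth, against 15.5%. With spike-in scaling 0 members were at least 2-fold higher in skin, against 9.03% of all genes, and 0 in tooth, against 32.4%. With median scaling 1 member was at least 2-fold higher in skin, against 11.6%, and 0 in tooth, against 20.1%. In order from the top, the differences were those of Dhcr7, Hmgcs1, Idi1, Lss, Sqle, Fdft1, Fdps and Cyp51. No neighbours in this order stood apart by more than 2 times the modelled error of their gap. The widest gap, between Idi1 and Lss (0.45), was 1.57 times its error, and that between Dhcr7 and Hmgcs1 (0.38) 1.30 times. Neighbours in the order are thus not resolved by the modelled error, which is set mainly by its fixed term of 10%. Repeated spots of other probes scattered less, with an SD of 0.12 for a difference, and the gaps were not set against that scatter.

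The median gene had a difference of -0.04, so the members can also be placed among all genes. Cyp51, the lowest of them, lay above 53.2% of the genes and Dhcr7, the highest, above 89.7%. Hmgcs1 lay above 86.3%, Idi1 above 84.4%, Lss above 73.7%, Sqle above 71.4%, Fdft1 above 69.1% and Fdps above 60.4%. All 8 were on the skin side of the median gene, and none was among the extreme differences between these tissues.

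**Figure D2:**
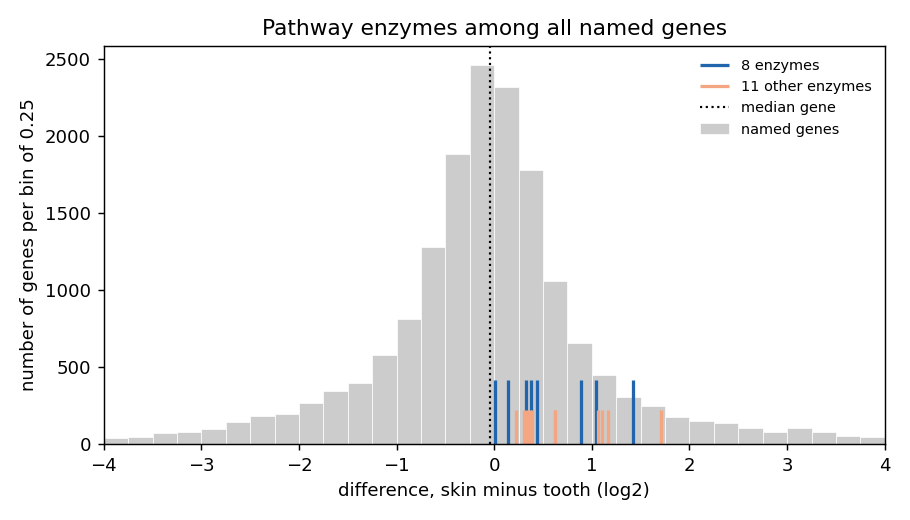
Number of named genes (y axis, bins of 0.25) by their difference, skin minus tooth (log2, x axis); 237 genes below -4 and 530 above 4 lie outside the range drawn, and line heights carry no value. The 8 enzymes and the 11 other enzymes of the pathway all lie to the right of the median gene (-0.04) and below 2, and the lowest of them, such as Cyp51 (0.01), fall in the tall bins beside it.

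The share of genes past 2-fold varied with the brightness of a spot. The 15271 genes above background on both arrays were split by brightness into 4 bins of equal size. From dim to bright, 16.0%, 12.5%, 9.69% and 7.44% were at least 2-fold higher in skin. At least 2-fold higher in tooth were 11.3%, 16.4%, 13.0% and 8.54%, which did not fall steadily. The medians of the bins were 0.16, -0.09, -0.13 and -0.00 from dim to bright. Of the members, 4 were in the brightest bin, 2 in the next, 2 in the one below and 0 in the dimmest, and all 8 had differences above the medians of the 3 brighter bins. The part of brightness in the members' differences was not tested.

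The direction of 5 of the 8 differences depended on how the arrays were made comparable. The 75th percentile was 428 in tooth and 276 in skin, 1.55 times higher in tooth. Without scaling, or with 8 spike-in transcripts set equal, the median gene moved from -0.04 to -0.68 or -0.67, and 3 of 8 members, Hmgcs1, Idi1 and Dhcr7, remained higher in skin. Over all alternatives the difference ranged from 0.41 to 1.19 for Hmgcs1, from 0.26 to 1.03 for Idi1 and from 0.79 to 1.56 for Dhcr7. Those of Fdps, Fdft1, Sqle, Lss and Cyp51 passed through 0. A scaling that shifts a whole array moves the median gene with the members, so it cannot change their place relative to that gene. After quantile normalization 8 of 8 members lay on the skin side of the median gene, and after another background correction (normexp) 6 of 8, where Fdps (0.02) and Cyp51 (0.03) were next to a median gene of 0.03.

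The rest of the pathway was read from 11 other enzymes, all above background on both arrays. All 11 were higher in skin after the main scaling, against 47.6% of all genes, and the median difference was 0.62. With the spike-ins 4 of 11 were higher in skin, where the median gene lay at -0.67 and all 11 lay above it. The largest was that of Msmo1, the sterol C4 methyl oxidase, which was 1.71 (3.27-fold), and it stayed at least 2-fold under every alternative, from 1.08 to 1.85. Hsd17b7, a 3-ketosteroid reductase of the C4 demethylation complex, had 1.16, and its further probes gave 0.83 to 1.25. Pmvk and Mvk, the kinases that phosphorylate mevalonate in sequence, had 1.11 and 1.06, with 0.96 and 0.99 on a further probe each. The other 7 lay between 0.23 and 0.62, namely Mvd (0.62), Sc5d (0.62), Tm7sf2 (0.39), Ebp (0.37), Acat2 (0.34), Lbr (0.30) and Nsdhl (0.23). A further Nsdhl probe gave -0.06.

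By segment, the 6 enzymes read up to isopentenyl diphosphate, with its isomerase Idi1 counted among them, had a median difference of 0.97. Their range was 0.34 to 1.11, and 3 were at least 2-fold higher in skin. The prenyl transferases Fdps and Fdft1 had 0.14 and 0.32, and Sqle and Lss 0.38 and 0.44. The 9 enzymes read from lanosterol to cholesterol spread widest, from 0.01 to 1.71 around a median of 0.39, and 3 were at least 2-fold higher in skin. These counts hold for the 75th percentile, where 14.2% of all genes passed the same threshold, and with spike-in scaling Msmo1 (1.09) was the 1 enzyme of the 19 past 2-fold. With 1 array per tissue this order of segments has no test.

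**Figure D3:**
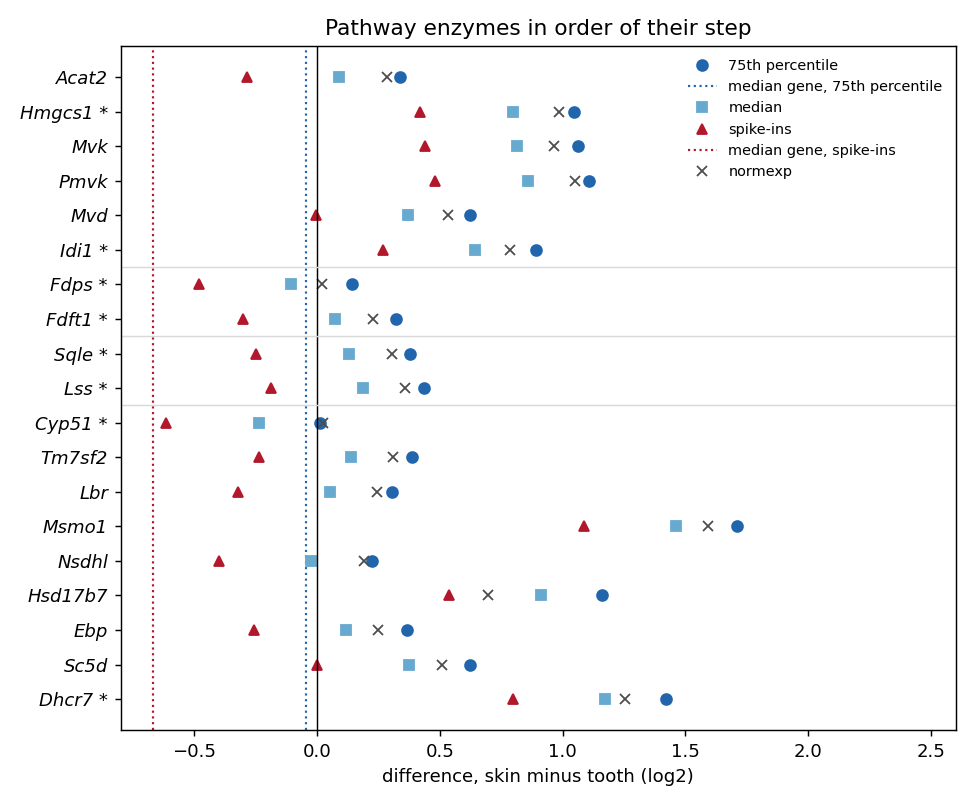
Difference, skin minus tooth (log2, x axis), of 19 pathway enzymes from the first step (top) to the last, under 3 scalings and with another background correction (normexp, then the 75th percentile); stars mark the 8 enzymes described in detail, grey lines divide the segments, and dotted lines give the median gene under the 75th percentile and under the spike-ins. Spike-in scaling moves every point to the left by the same amount, so Cyp51 goes from 0.01 to -0.61 and Dhcr7 from 1.42 to 0.80, and it moves the median gene by that amount as well.

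The regulators of the pathway did not share a direction after the main scaling. Of 7 genes of the SREBP system, 4 were higher in skin, against 47.6% of all genes, 3 in tooth, against 52.4%, and 0 by 2-fold. Their median of 0.01 ranged from -0.62 to 0.15 over the alternatives. Srebf2, which encodes SREBP-2, had 0.09 (-0.46 on a further probe), Srebf1 0.01 and Scap, the escort of both, 0.15. Insig1 and Insig2, which hold Scap in the endoplasmic reticulum, had -0.54 and 0.90, and a further Insig2 probe gave 1.45. Mbtps1 and Mbtps2, the proteases that release the factor, had -0.88 and -0.05, and a further Mbtps2 probe gave 0.46. On the brightest probe, Srebf1, Srebf2, Scap and Mbtps2 had differences of 0.15 or less in size, and spike-in scaling moved every gene by more than that. All of these values are transcript levels, and cleavage of SREBP-2 was not measured.

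Genes of cholesterol uptake and transport were mostly lower in skin, with 5 of 7 on the tooth side, against 52.4% of all genes, and a median of -0.50 (-1.13 to -0.25 over the alternatives). Stard4, a sterol carrier of the cytosol, was the exception by size, with 1.96 (3.89-fold higher in skin) and 1.72 on a further probe. Npc2, which hands cholesterol out of lysosomes, was 2.90-fold higher in tooth (-1.54). Osbp, an oxysterol-binding protein, had -0.62, but 0.11 on a further probe.

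Among 10 measured genes of efflux, esterification and sterol modification the median was -0.19 (-0.82 to -0.05), and single genes differed far more than any biosynthetic enzyme. Sult2b1, the sulfotransferase that makes cholesterol sulfate in cornifying epidermis, had levels of -2.05 in tooth and 5.29 in skin, 162-fold higher in skin. Apoe, the apolipoprotein that carries exported cholesterol, was 8.79-fold and Soat1, which esterifies cholesterol, 3.87-fold higher in skin. The liver X receptor genes and their exporters Abca1 and Abcg1 lay on the tooth side, with -0.65 for Nr1h3, -0.18 for Nr1h2, -0.77 for Abca1 and -0.70 for Abcg1. Cyp7b1, an oxysterol hydroxylase, passed the background call in tooth and not in skin, for a tooth excess of at least 4.19-fold. Ch25h and Cyp27a1 were above background on neither array.

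Genes that draw on the same isoprene units for other products had differences from -0.55 to 0.59 on the brightest probe. Over 9 genes of prenylation, dolichol and ubiquinone synthesis, 6 were higher in skin, against 47.6% of all genes, and none differed by 2-fold. The median was 0.24 (-0.39 to 0.41 over the alternatives). One of the further Icmt probes gave 2.88, against 0.26 for the brightest. In fatty acid synthesis, which shares acetyl-CoA and SREBP control with the sterol pathway, the 11 measured genes had a median of 0.23 (-0.40 to 0.39) and split by gene. Scd1, a stearoyl-CoA desaturase, had 1.60 and Elovl6, a fatty acid elongase, 1.57. Scd2, the paralog of Scd1, had -1.86 and Fads1, a desaturase of polyunsaturated fatty acids, -2.27. Fads2 had -3.22, but -0.47 on a further probe. Fasn had 0.81 and Acly 0.76, with 1.56 on a further Acly probe, whereas Acaca had 0.42.

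**Figure D4:**
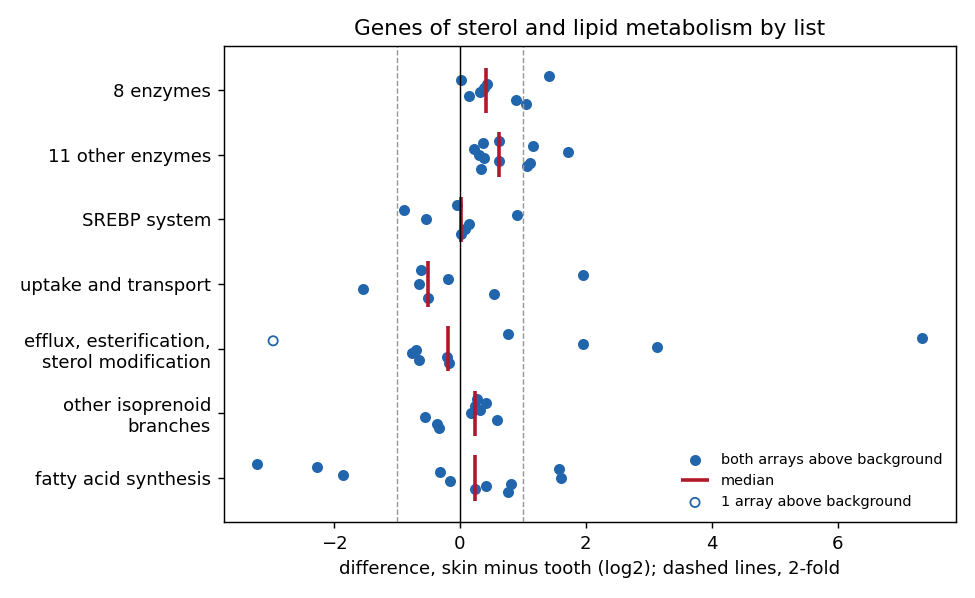
Difference, skin minus tooth (log2, x axis), of each measured gene in 7 lists, with the list median as a vertical bar, open points for genes above background on 1 array, and dashed lines at 2-fold. The 2 enzyme lists lie on the skin side after scaling to the 75th percentile, with medians of 0.41 and 0.62 that fall to -0.22 and -0.0036 with spike-in scaling, whereas the other lists spread to both sides.

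The tissues matched their labels by marker genes. Of 5 ameloblast markers, 5 were above background in tooth and 1 in skin, Klk4, and the list summed to 2161 times the 75th percentile in tooth and 0.25 in skin. Differentiated epidermis showed the reverse, with 5 of 5 markers above background in skin, 4 in tooth and sums of 6.0 in tooth and 3760 in skin. General epithelial markers were present in both tissues, with a median difference of 0.66. Odontoblast and bone markers summed to 343 in tooth and 0.65 in skin, and Dspp, Dmp1 and Sp7 entered through tooth alone. Of 5 Schwann cell markers 3 were higher in skin, and the list had a median of 0.06 and sums of 17.4 in tooth and 11.2 in skin. Of 5 mesenchymal markers 2 were higher in skin, against 47.6% of all genes. The list had a median of -0.98 and sums of 602 and 153, to which Col1a1 (-3.17) gave the most in tooth. Of 5 cell cycle genes 1, Mki67, was higher in skin, against the same 47.6%, with a median of -0.21 and sums of 44.3 and 46.7.

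Markers of lipid-storing and lipid-secreting cells differed between the arrays as well. Of 5 adipocyte markers, 4 were above background in skin and 1, Fabp4, in tooth, whereas Lep was on neither array. Sums without Lep were 0.66 in tooth and 13.1 in skin, and Adipoq, Plin1 and Cidec entered them through skin alone. Of 4 sebocyte markers, 4 were above background in skin and 2 in tooth, with sums of 0.75 in tooth and 8.14 in skin. Elovl3 and Awat2 entered these sums through skin alone. Elovl3 (level 2.55 in skin) gave the most to the skin sum, whereas Mc5r had a difference of 0.12 and Scd3 1.53. Skeletal muscle markers summed to 6.24 in tooth and 54.1 in skin, and of these Myog entered through skin alone. The part of these cells in the members' differences was not tested, and in bulk RNA fewer cells of a type cannot be told apart from less RNA per cell.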

How the data were processed

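Tooth and skin RNA was measured on 1 array each, on the same slide. Per the file headers, the deposited intensities came from Agilent Feature Extraction (version 10.7.3.1), with background subtracted and spatial trends removed. The authors also deposited a table of ratios, the processed intensity over a single factor per array, with no centring on genes; it served as an alternative. The study's methods named GeneSpring, a filter on low signal and a percentile shift.

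From the deposited intensities, log2 values were taken without outlier spots, the 75th percentile over non-control probes was subtracted from each array, and spots of a probe were averaged (Python 3.11.15, pandas 2.3.3). The 59305 non-control spots carried 55675 probes. The brightest probe stood for a gene, and a gene counted as measured if well above background on at least 1 array, by more than 50% of its spots. A gene dim on the other array was given as at least N-fold, against the lowest signal called above background there (-4.52 in tooth and -3.73 in skin). List medians used the dim value as measured. Names were updated through RefSeq accessions for 82.1% of named probes. Probe coordinates are those of the files (mm9) and promoters those of GRCm38.p6; the exon or UTR under a probe was not analysed.

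Above background were 56.7% of probes in tooth and 52.5% in skin, and 0 spots were saturated. Spots of probes printed at least 8 times had a median SD of 0.08 in tooth (297 probes) and 0.09 in skin (287 probes), which gives a difference an SD of 0.12. The number of arrays limits the precision. The calculation was tested on simulated data. Differences of at least 2-fold were counted, and alternatives covered scaling, background (normexp, offset 50, limma 3.58.1), probe choice, filters, outlier spots and the fold. The members and gene lists were chosen with earlier results of these data known. Some genes of the sterol lists are not reported here and were left out of their counts and medians. The text names the members, and of the other sterol and lipid lists the genes at least 2-fold different and those that a sentence needs. Of the marker lists only some genes are named, and markers left unnamed can differ by 2-fold or more.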

Additional observations from a re-analysis of the deposited data

How the results depend on the processing

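With 1 array per tissue, results are values without a test, and no array could be left out. The scaling between arrays changed the sign of the medians of both enzyme lists. Those of the uptake list and the efflux list stayed on the tooth side in every setting, the efflux list by as little as -0.05. The median difference of the 8 enzymes, 0.41 as reported, was 0.55 with the housekeeping genes set equal, 0.16 with median scaling, -0.22 without scaling and -0.22 with spike-in scaling. That of the 11 other enzymes, 0.62 as reported, was 0.76, 0.37, -0.011 and -0.0036 under the same 4 settings, and that of the related sterol, isoprenoid and fatty acid lists together, -0.02 as reported, was 0.12, -0.27, -0.65 and -0.64. Without scaling and with spike-in scaling, where the median gene lay at -0.68 and -0.67, 3 of the 8 and 4 of the 11 other enzymes were higher in skin. The 2 members at least 2-fold higher in skin became 1 with median scaling, quantile normalization, normexp background correction or the mean of the probes, and 0 without scaling, with spike-in scaling or at a 4-fold threshold. No member was at least 2-fold higher in tooth under any alternative. Relative to the median gene, a measure added after the data were seen, which a shift of a whole array cannot change, the members' median was 0.45 and ranged from 0.23 to 0.49. Of the 8 members, 6 lay above the median gene with no filter on dim probes or with normexp, and 7 with the filter on positive and significant signal. The 11 other enzymes lay above it in every setting. No paired analysis was possible because each tissue had 1 array. Signal over background did not limit the members, but 2 of their further probes were too dim to check a difference.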
